A study of Homo sapiens with 14 samples.

Results

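The libraries described here are the 7 RNA-seq libraries, of 14 in the series, of SCC23 cells kept in glucose, and the comparison is that of KMT2D-KO with KMT2D-WT cells. They were chosen by their titles, which mark cells with glucose. SCC23 is an established line of head and neck squamous cell carcinoma (HNSCC), and all cells were grown in high glucose DMEM with 10% FBS. KMT2D-WT cells (3 libraries) are the controls of a protocol that delivered Cas9 with a guide against LacZ or against KMT2D. KMT2D-KO cells (4 libraries) come from lines named KO1 and KO2, in which GFP-positive cells were sorted after CRISPR/Cas9 targeting. No cloning of single cells is described, and whether each line grew from a single cell is not known. Experiment 1 gave 1 WT library and 1 of each line, and experiment 2 gave 2 WT libraries and 1 of each line. The other 7 libraries, of the same genotypes after 6 h without glucose, serve here only for side-by-side values.

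KMT2D is a histone methyltransferase of the COMPASS family that places monomethylation on lysine 4 of histone H3, mainly at enhancers. Enhancers give a cell type its own pattern of expression, and in squamous epithelium they act with transcription factors such as TP63 on genes for keratins, junctions and attachment to the basement membrane. KMT2D is among the genes recurrently mutated in HNSCC. The libraries were therefore read for squamous identity, adhesion and matrix, signalling and immunity, gene group by gene group.

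Values are given per library as CPM, counts set to a common library size with TMM factors. They are listed as the WT library of experiment 1 followed by both of experiment 2, and for each line as experiment 1 followed by experiment 2. CPM is not scaled to gene length, so it is compared between libraries and not between genes. A log2 fold change is KMT2D-KO minus KMT2D-WT with both lines together and experiment as a covariate, and ± is its standard error. A gene is called lower or higher where edgeR's quasi-likelihood test gave a Benjamini-Hochberg adjusted p under 0.05 over all 20423 genes tested.

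The libraries held between 15669154 and 62968057 counts, those of experiment 2 with both mates of a pair counted. Mitochondrial genes held between 2.69% and 6.17% of counts. For principal components, the difference between experiments was first removed from the log CPM, with genotype kept in the model. Over the 500 genes most variable after this step, the first component separated the genotypes (83.9% of their remaining variance). The second separated KO1 from KO2 (11.7%). Among marker lists, the summed level of 14 squamous epithelial genes was 3749 to 4519 CPM in WT and 3307 to 4085 CPM in KMT2D-KO libraries, with none at 0 in all 7 libraries and 3 lower. The 12 leukocyte markers summed to at most 2.51 CPM, with PTPRC, MS4A1 and TYROBP at 0 in all 7 libraries. The 12 fibroblast markers summed to 6.22 to 7.31 CPM in WT and 13.3 to 28.6 CPM in KMT2D-KO libraries, with DPT at 0. In bulk RNA, fewer cells of a type and less RNA per cell cannot be told apart.

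KMT2D itself was read first. Its RNA was at 286, 279.8 and 284 CPM in the WT libraries, 188 and 195 CPM in KO1 and 342 and 385 CPM in KO2 (log2 fold change -0.02 ± 0.25 SE, adjusted p = 0.97 with both lines together). Both KO1 libraries thus lay below and both KO2 libraries above the WT libraries, and the lines differed (adjusted p = 1.97e-06). A count over the whole gene does not show whether its coding frame is broken, so it is no check of the labels. Among 22 genes of the KMT2 family and its partners, 6 were lower and 3 higher (27.3% and 13.6%, against 11.7% and 13% of all genes tested). KMT2C, the closest relative of KMT2D, was among the lower genes (log2 fold change -0.55 ± 0.09 SE, adjusted p = 0.00206), as was PAXIP1 (-0.64), a subunit of the complexes of both. CREBBP, a histone acetyltransferase active at enhancers, was higher (0.58). KMT2C and PAXIP1 lie in a stretch of chromosome 7, and CREBBP in one of chromosome 16, whose genes moved the same way (window medians -0.41 and 0.56). Without each WT library, that of experiment 1 first and then the first and the second of experiment 2, the family held 1, 5 and 3 lower and 2, 2 and 2 higher genes. PAXIP1 missed the limit without the first of these.

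Across the genome, 2384 genes were lower and 2658 higher, or 24.7% of those tested in either direction. Protein-coding genes were called more often, 15.7% lower and 16.9% higher, and nearly all list members below are of this kind. At least 2-fold changes were seen in 708 lower and 905 higher genes, at least 4-fold changes in 201 and 482, and at least 16-fold changes in 48 and 197. No count was found in any WT library for 65 of the higher genes, and in no KMT2D-KO library for 8 of the lower genes. All 4 KMT2D-KO libraries lay beyond all 3 WT libraries for 1520 of the lower and 1589 of the higher genes. Calls on the same libraries favour such genes, and the share over all genes tested is not given, so nothing is read from these counts. The number of calls depends on the WT libraries. It was 1008 lower and 1134 higher without the WT library of experiment 1, 1454 and 1653 without the first and 1551 and 1698 without the second of experiment 2. With experiment left out of the model it was 476 and 495. For each gene list below, counts without each WT library are given in that order. List counts are to be read against the shares of all genes tested, 11.7% lower and 13% higher. With experiment left out of the model, no list held more than 7 lower or 7 higher genes.

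The genes with the largest fall were nearly silent in every KMT2D-KO library. DSCAM, a cell adhesion molecule of the immunoglobulin family, was at 14.1, 23.2 and 20.5 CPM in the WT libraries, 0.0634 and 0.0321 CPM in KO1 and 0 and 0 CPM in KO2 (log2 fold change -9.80 ± 0.39 SE, adjusted p = 7.01e-06). GAS6, the ligand of the TAM receptor kinases, was at 14.4, 9.96 and 5.88 CPM in the WT libraries, 0.0634 and 0.0642 CPM in KO1 and 0 and 0.0701 CPM in KO2 (log2 fold change -7.29 ± 0.41 SE, adjusted p = 2.40e-05). In both genes every WT library held more than 5 CPM and no KMT2D-KO library reached 0.1 CPM. All 10 were chosen among genes with the genotypes apart in each experiment, so their separation is part of the choice. The other 8 of the 10 largest falls had WT levels between 1.17 and 21.1 CPM and no KMT2D-KO level above 0.626 CPM. They were FABP5 (-8.68), the fatty acid binding protein of keratinocytes, the RNA AC105460.1 (-8.002), the membrane mucin MUC16 (-6.59), PLEKHA4 (-6.35), the membrane serine protease PRSS8 (-6.16), the metalloprotease ADAM12 (-5.88), the secreted matrix protein CCBE1 (-5.80) and EFCAB5 (-5.13). FABP5 has processed pseudogenes, which makes its counts uncertain.

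Of the 10 largest rises, 8 were in genes with no count in any WT library. For these a lower bound is given, set against 3 counts over the WT libraries together. ICA1, an islet cell autoantigen found on vesicles, was at 13.5 and 12.05 CPM in KO1 and 10.4 and 8.24 CPM in KO2 (at least 529-fold higher, adjusted p = 4.01e-05). LPCAT2, an acyltransferase of phospholipid remodelling, was at 7.096 and 11.1 CPM in KO1 and 9.703 and 15.8 CPM in KO2 (at least 524-fold). Both lines thus expressed these genes where no WT library held a read of them. ELAVL2, a neuronal RNA-binding protein (at least 205-fold), the potassium channel KCNK5 (at least 195-fold) and FAM155B (at least 350.0-fold) gave no call between the lines either. The other 3 differed between the lines. TBL1X, a subunit of the NCoR and SMRT corepressors, was at 0.444 and 4.14 CPM in KO1 and 5.49 and 9.94 CPM in KO2 (at least 240.0-fold). MAL2, a protein of apical transport, was at 16.2 and 35.3 CPM in KO1 and 2.88 and 6.698 CPM in KO2 (at least 732-fold), and LONRF3 at 7.602 and 10.3 CPM in KO1 and 0.205 and 0.158 CPM in KO2 (at least 219-fold). LONRF3 missed the limit when any 1 WT library was left out. The last pair of the 10 were GALNT14, a glycosyltransferase that starts O-linked sugar chains (log2 fold change 9.34 ± 0.39 SE, adjusted p = 7.59e-06), and SPATA13, a guanine nucleotide exchange factor (log2 fold change 9.02 ± 0.38 SE, adjusted p = 7.59e-06). SPATA13 shares 37.9% of its exonic bases with other genes, and counting ignored strand, so its reads cannot be told apart from theirs.

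**Figure D1:**
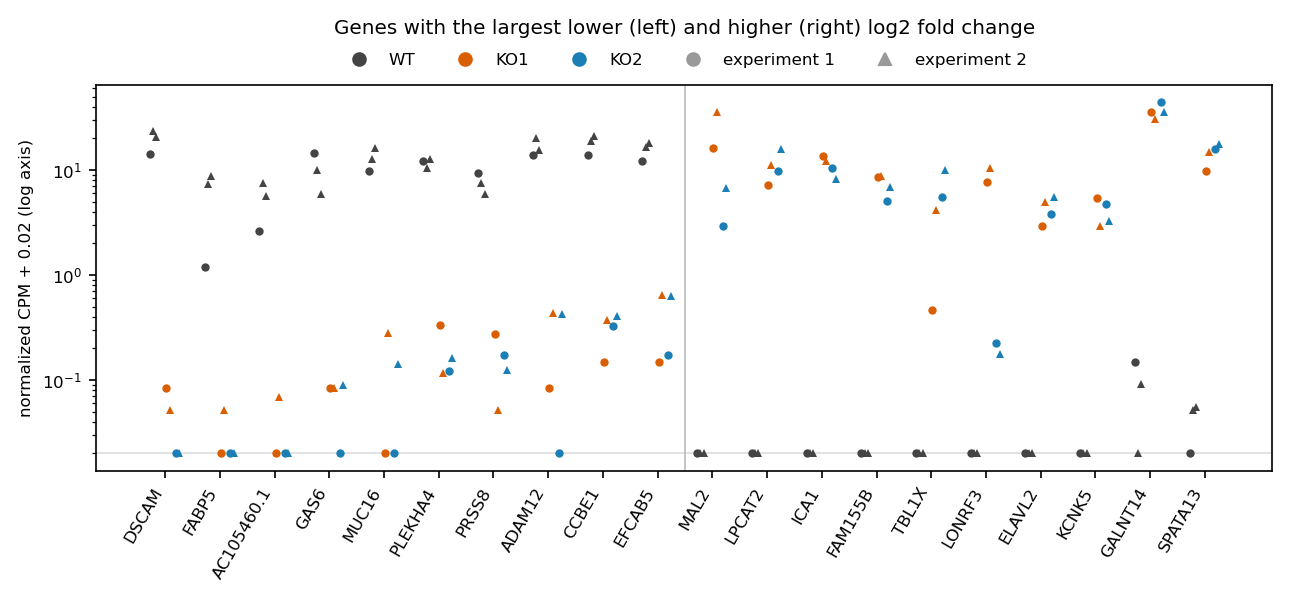
Normalized CPM (log axis, 0.02 added) of the 10 genes with the largest lower and the 10 with the largest higher log2 fold change, 1 point per library (grey WT, orange KO1, blue KO2, circles experiment 1, triangles experiment 2). The genotypes do not overlap in any of the 20 genes, which were chosen among genes with the genotypes apart in each experiment. LONRF3 and MAL2 also separate KO1 from KO2.

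The 250 bases before the start are shown for the 2 genes with the largest fall and the 2 with the largest rise among those with a RefSeq promoter used here (GRCh38.p14), since these are genes that were on in 1 genotype and off in the other. Capitals mark matches, on either strand, to AP-1 (TGANTCA), CRE (TGACGTCA), TEAD (GGAATG), E-box (CACGTG) or GC box (GGGCGG) letters. The first 3 have minus strand genes, at chr21:40847159-40847408, chr13:113864077-113864326 and chr7:8262168-8262417, and TBL1X is on the plus strand at chrX:9463045-9463294.
DSCAM: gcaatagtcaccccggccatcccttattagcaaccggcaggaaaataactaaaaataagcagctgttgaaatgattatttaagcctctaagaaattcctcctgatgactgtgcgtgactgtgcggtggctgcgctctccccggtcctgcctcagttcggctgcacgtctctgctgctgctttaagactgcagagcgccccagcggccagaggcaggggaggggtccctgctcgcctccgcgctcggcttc
GAS6: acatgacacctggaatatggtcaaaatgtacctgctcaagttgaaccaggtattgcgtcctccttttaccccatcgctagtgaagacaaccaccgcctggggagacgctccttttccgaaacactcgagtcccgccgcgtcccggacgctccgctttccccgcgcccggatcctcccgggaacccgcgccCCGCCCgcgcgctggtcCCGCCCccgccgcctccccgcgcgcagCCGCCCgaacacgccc
ICA1: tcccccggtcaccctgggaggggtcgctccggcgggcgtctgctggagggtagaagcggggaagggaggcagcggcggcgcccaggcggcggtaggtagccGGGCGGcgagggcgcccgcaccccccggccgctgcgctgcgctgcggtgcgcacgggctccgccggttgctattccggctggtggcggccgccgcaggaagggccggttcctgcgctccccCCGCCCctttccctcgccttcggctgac
TBL1X: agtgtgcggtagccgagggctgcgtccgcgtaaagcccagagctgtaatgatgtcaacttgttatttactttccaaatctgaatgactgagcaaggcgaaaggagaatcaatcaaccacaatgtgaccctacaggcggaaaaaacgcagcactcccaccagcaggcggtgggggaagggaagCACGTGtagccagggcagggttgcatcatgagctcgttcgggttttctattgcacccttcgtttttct
The DSCAM stretch held 14 CpG and no match, that of GAS6 31 CpG and 3 GC boxes, that of ICA1 34 CpG and 2 GC boxes, and that of TBL1X 13 CpG and 1 E-box. Over 27305 promoters of this length the median was 11 CpG, 42.3% held a GC box, 6.49% an E-box, 6.60% AP-1, 1.77% CRE and 11.9% TEAD letters. None of the 4 thus held AP-1, CRE or TEAD letters. All 4 stretches lay above the median CpG count, those of DSCAM and TBL1X nearer to it than those of GAS6 and ICA1. A comparison over all called genes was not made, since 76.3% of lower and 68.6% of higher genes have an entry.

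Among abundant transcripts, 8 genes in each direction were chosen for their difference in CPM. MYH9, the non-muscle myosin heavy chain of stress fibres, was at 5924, 4277 and 4024 CPM in the WT libraries, 2478 and 1898 CPM in KO1 and 3062 and 2050.1 CPM in KO2 (log2 fold change -1.08 ± 0.09 SE, adjusted p = 1.19e-04). MKI67, the proliferation marker Ki-67, was at 2035, 2401 and 3137 CPM in the WT libraries, 896 and 1197 CPM in KO1 and 916 and 1246 CPM in KO2 (log2 fold change -1.17 ± 0.10 SE, adjusted p = 1.10e-04). In both genes every KMT2D-KO library lay below every WT library. MYH9 lies on chromosome 22, in a window of 10 megabases (Mb) whose median log2 fold change was -0.82. The other lower genes chosen for level were the integrin subunits ITGA3 (-0.86) and ITGB4 (-0.77), the hemidesmosomal collagen COL17A1 (-0.95), the metallothionein MT2A (-0.998), the dynein heavy chain DYNC1H1 (-0.53) and filamin C, FLNC (-2.41). Of the higher genes, MT-RNR2, the large mitochondrial ribosomal RNA, was at 1115, 2527 and 2675 CPM in the WT libraries, 2819 and 4176 CPM in KO1 and 3554 and 6926 CPM in KO2 (log2 fold change 1.26 ± 0.18 SE, adjusted p = 0.00156). Every KMT2D-KO library lay above every WT library. MT-CO1 (0.48) and MT-ND1 (0.70), subunits of the respiratory chain, the ribosomal protein RPL8 (0.81), the ribosome scaffold RACK1 (1.05), cytoplasmic actin ACTG1 (0.64), the chaperone HSP90AA1 (0.39) and the matrix protease MMP3 (3.21) were also higher. RPL8 lies in a window of chromosome 8 with a median of 0.41, and RACK1 in one of chromosome 5 with a median of 0.65. RPL8, RACK1, ACTG1, HSP90AA1 and the mitochondrial genes have near-identical copies in the genome, which makes their counts uncertain. Without the WT library of experiment 1, MT-CO1, MT-ND1, ACTG1, HSP90AA1 and MMP3 missed the limit. MT-CO1, MT-ND1 and ACTG1 also missed it without the first WT library or without the KO2 library of experiment 2. MMP3 and ACTG1 missed it without the second WT library of experiment 2, and MT-CO1 without the KO2 library of experiment 1.

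Squamous transcription factors were called at shares near those of all protein-coding genes, and 5 of 33 tested members were lower and 6 higher (median -0.09, or 2, 4 and 3 lower and 3, 4 and 5 higher without each WT library). The median over all genes tested was 0.02. TP63, the master regulator of the basal squamous state, was at 78.7, 76.9 and 109 CPM in the WT libraries, 83.2 and 91.5 CPM in KO1 and 75.3 and 113 CPM in KO2, and the groups overlapped (log2 fold change 0.09 ± 0.13 SE, adjusted p = 0.68). SOX2, its partner in squamous cancers, was at 1.04, 1.42 and 1.36 CPM in the WT libraries, 0 and 0.289 CPM in KO1 and 0 and 0.123 CPM in KO2 (log2 fold change -3.25 ± 0.58 SE, adjusted p = 0.00404), so every KMT2D-KO library was below 0.3 CPM. GRHL1, a regulator of desmosomal cadherins (-1.15), and FOXE1, a forkhead factor of oral and thyroid epithelium (-1.08), were also lower. Of the higher factors, DLX5, a homeobox factor of craniofacial development, had no count in WT and reached 1.58 and 1.35 CPM in KO1 and 2.72 and 1.95 CPM in KO2 (at least 91.1-fold). KLF4, a driver of keratinocyte differentiation, was at 9.903, 7.45 and 5.87 CPM in the WT libraries, 23.8 and 27.5 CPM in KO1 and 31.1 and 24.8 CPM in KO2 (log2 fold change 1.78 ± 0.17 SE, adjusted p = 1.67e-04). All 4 KMT2D-KO libraries were above 20 CPM and all 3 WT libraries below 10 CPM. BARX2, a homeobox factor, was higher too (1.24). GRHL1 and BARX2 missed the limit without the WT library of experiment 1.

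The keratins separated the lines. KRT14, the basal type I keratin, was at 251, 234 and 193 CPM in the WT libraries, 85.5 and 27.997 CPM in KO1 and 145 and 69.9 CPM in KO2 and was lower (log2 fold change -1.74 ± 0.34 SE, adjusted p = 0.00627). KRT5, its type II partner, was at 28.7, 13.9 and 22.1 CPM in the WT libraries, 9.06 and 1.59 CPM in KO1 and 176 and 85.5 CPM in KO2, below the WT libraries in KO1 and above them in KO2, and gave no call with both lines together (log2 fold change 1.44 ± 1.14 SE, adjusted p = 0.41). KRT7, a keratin of simple and glandular epithelium, was at 8.69, 4.69 and 3.91 CPM in the WT libraries, 22.9 and 10.5 CPM in KO1 and 182 and 52.04 CPM in KO2, highest in KO2 (log2 fold change 3.12 ± 0.76 SE, adjusted p = 0.017). KRT17, a keratin of stressed and basal cells, gave no call (-0.41, adjusted p = 0.55), at 152, 78.2 and 85.02 CPM in the WT libraries, 78.9 and 25.4 CPM in KO1 and 233 and 75.6 CPM in KO2. The lines differed in all of these keratins, with adjusted p between 5.35e-08 and 0.00415. Over the list, 1 of 17 tested members were lower and 4 higher (median 0.37, or 1, 1 and 1 lower and 3, 0 and 0 higher without each WT library), and KRT7 missed the limit when any 1 WT library or the KO2 library of experiment 2 was left out. The 8 markers of simple glandular epithelium, KRT7 among them, summed to 4.10 to 8.74 CPM in WT and 12.4 to 183 CPM in KMT2D-KO libraries. Most of each sum was KRT7 itself, and no other member exceeded 1.67 CPM in any library. The sum therefore mostly repeats the values of KRT7. Only 2 of the 8 markers were tested, KRT7 and NKX2-1, and both were called higher. NKX2-1 was at no more than 0.031 CPM in WT and at 0.821 to 1.67 CPM in KMT2D-KO libraries. A part of glandular cells was not tested. Keratins have close copies, which makes single counts uncertain.

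Genes of the cornified envelope went both ways, and 7 of 23 tested members were lower and 5 higher (median 0.24, or 4, 4 and 5 lower and 3, 3 and 4 higher without each WT library). PPL, periplakin of the cornified envelope, was at 228, 186 and 215 CPM in the WT libraries, 76.5 and 66.7 CPM in KO1 and 99.4 and 84.7 CPM in KO2 (log2 fold change -1.39 ± 0.12 SE, adjusted p = 1.23e-04), with no overlap. CSTA, a protease inhibitor of the envelope (log2 fold change 1.04 ± 0.14 SE, adjusted p = 0.00118), and SPINK5, an inhibitor of epidermal kallikreins (0.99), were higher. SPRR2A of the same list was called higher too (7.19), but its level in single libraries is not given here. SPINK5 missed the limit without the WT library of experiment 1.

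In the desmosome and adherens junction list, 4 of 25 tested members were lower and 2 higher (median 0.01, or 2, 3 and 2 lower and 1, 2 and 2 higher without each WT library). PKP1, the plakophilin of the upper epidermis, was at 8.95, 5.86 and 6.68 CPM in the WT libraries, 1.33 and 1.53 CPM in KO1 and 0.975 and 0.912 CPM in KO2 (log2 fold change -2.58 ± 0.25 SE, adjusted p = 1.93e-04). Desmoplakin, DSP (-0.51), and the catenin CTNNA1 (-0.53) were slightly lower and desmoglein DSG2 slightly higher (0.50). Another desmoglein, DSG1, was called higher by far more (7.37), but its level in single libraries is not given here. CDH1, E-cadherin, was at 59.9, 53.6 and 60.6 CPM in the WT libraries, 84.6 and 52.7 CPM in KO1 and 148 and 121 CPM in KO2 and gave no call (log2 fold change 0.74 ± 0.29 SE, adjusted p = 0.0951). KO2 exceeded KO1 in CDH1 (adjusted p = 4.69e-05). In the tight and gap junction list, 8 of 33 tested members were lower and 5 higher (median -0.13, or 5, 5 and 4 lower and 5, 5 and 5 higher without each WT library). GJA1, connexin 43, was at 0, 0.405 and 0 CPM in the WT libraries, 11.97 and 17.3 CPM in KO1 and 12.4 and 27.5 CPM in KO2 (log2 fold change 6.92 ± 0.68 SE, adjusted p = 2.02e-04). GJB2, connexin 26 (2.34), and CLDN1, the claudin of the epidermal barrier (2.06), were higher as well, whereas the tight junction adaptor CGN was lower (-0.83). Every KMT2D-KO library lay above every WT library in these 3 higher genes. Without the WT library of experiment 1, DSP and DSG2 missed the limit, and DSP also without the second of experiment 2.

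Of 30 hemidesmosome and basement membrane genes tested, 10 were lower and 7 higher (33.3% and 23.3%, against 11.7% and 13% of all genes tested). Of 17 integrins 6 were lower and 2 higher (35.3% and 11.8%). The medians of these lists were -0.14 and -0.33. ITGB4, the hemidesmosomal integrin subunit, was at 1318, 1599 and 1446 CPM in the WT libraries, 747 and 880.4 CPM in KO1 and 808 and 905 CPM in KO2 (log2 fold change -0.77 ± 0.08 SE, adjusted p = 2.24e-04). ITGA6, which pairs with it, was at 336, 750.2 and 727 CPM in the WT libraries, 415 and 880.3 CPM in KO1 and 370.1 and 858 CPM in KO2 and gave no call (log2 fold change 0.23 ± 0.08 SE, adjusted p = 0.0536). COL17A1 was at 1087, 1192 and 1075 CPM in the WT libraries, 732 and 578 CPM in KO1 and 497 and 528 CPM in KO2 (log2 fold change -0.95 ± 0.13 SE, adjusted p = 0.00117). The groups were apart in ITGB4 and COL17A1 and overlapped in ITGA6. The largest rise called in the basement membrane list was that of LAMC3 (8.605), whose level in single libraries is not given here. ITGA2, a collagen receptor subunit (-1.36), ITGA3, a laminin receptor subunit (-0.86, adjusted p = 1.13e-04), and ITGB8, which activates TGF-beta (-1.44), were lower, and ITGB6, its relative in wounded epithelium, was higher (1.28). With each WT library left out in turn, the basement membrane list held 5, 6 and 5 lower and 1, 5 and 3 higher members. The integrins held 5, 4 and 5 lower and 1, 1 and 1 higher ones. ITGA2 missed the limit without the WT library of experiment 1 or the first of experiment 2.

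Other cadherins were lower in 11 and higher in 4 of 33 genes, and adhesion molecules of the immunoglobulin and neuronal families in 7 and 3 of 27 (medians -0.36 and -0.25). Without each WT library the cadherins held 7, 9 and 8 lower and 3, 3 and 2 higher genes, and the other adhesion molecules 4, 7 and 7 lower and 1, 1 and 2 higher. ICAM1, the leukocyte adhesion molecule, was at 230.1, 207 and 171 CPM in the WT libraries, 20.8 and 22.3 CPM in KO1 and 31.4 and 27.02 CPM in KO2 (log2 fold change -3.02 ± 0.15 SE, adjusted p = 1.73e-05). It shares 25.4% of its exonic bases with other genes. CELSR2, a cadherin of planar polarity, was at 121, 84.6 and 94.96 CPM in the WT libraries, 24.7 and 27.6 CPM in KO1 and 14.7 and 14.3 CPM in KO2 (log2 fold change -2.31 ± 0.25 SE, adjusted p = 3.10e-04). All KMT2D-KO libraries were below all WT libraries in both. CDH4, R-cadherin, was lower (-2.96) and CDH12, a brain cadherin, higher (6.75), from at most 0.0707 CPM in WT libraries to at least 4.16 CPM in KMT2D-KO libraries.

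Mesenchymal genes were higher more often than lower. Of 31 tested, 13 were higher and 5 lower (41.9% and 16.1%, against 13% and 11.7% of all genes tested), with a median of 0.73. FN1, fibronectin, was at 559, 546 and 513 CPM in the WT libraries, 79.8 and 57.9 CPM in KO1 and 64.7 and 48.7 CPM in KO2 (log2 fold change -3.17 ± 0.12 SE, adjusted p = 6.27e-06). VIM, the intermediate filament vimentin, was at 90.6, 101 and 89.7 CPM in the WT libraries, 380.1 and 457 CPM in KO1 and 165 and 169.9 CPM in KO2 (log2 fold change 1.67 ± 0.36 SE, adjusted p = 0.00989). TGFBI, a matrix protein induced by TGF-beta, was at 43.8, 34.2 and 22.1 CPM in the WT libraries, 261 and 204 CPM in KO1 and 313 and 288 CPM in KO2 (log2 fold change 2.96 ± 0.20 SE, adjusted p = 4.75e-05). None of these 3 overlapped between genotypes, and VIM was higher in KO1 than in KO2. LOX, which crosslinks collagen, was higher (2.57), as was TAGLN, an actin-binding protein of smooth muscle (2.54), at 22.6, 14.9 and 10.9 CPM in the WT libraries, 33.1 and 15.1 CPM in KO1 and 278 and 119 CPM in KO2. TAGLN shares 47.8% and VIM 24.3% of their exonic bases with other genes. Without each WT library the list held 2, 4 and 4 lower and 8, 9 and 8 higher members. VIM missed the limit without the WT library of experiment 1 or the second of experiment 2, and TAGLN when any 1 WT library or any 1 KO2 library was left out. Of the 12 fibroblast markers given above, only COL1A1, COL1A2 and COL3A1 were tested, and these 3 were higher. COL1A1 was the largest part of the marker sum in every library, and none of the untested markers exceeded 0.842 CPM in any. The part of fibroblasts in the mesenchymal list was not tested.

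Of the collagens 5 of 17 tested members were lower and 5 higher (median 0.32, or 2, 3 and 2 lower and 5, 4 and 4 higher without each WT library). COL18A1, whose end gives endostatin, was at 44.3, 39.98 and 30.5 CPM in the WT libraries, 7.16 and 5.38 CPM in KO1 and 12.3 and 9.36 CPM in KO2 (log2 fold change -2.23 ± 0.23 SE, adjusted p = 2.73e-04), and COL12A1, which coats fibrils, was lower too (-0.86). The fibrillar collagen genes COL3A1 and COL1A2 were called higher (5.24 and 2.72) on experiment 2 alone. COL3A1 was at 0, 0.218 and 0 CPM in the WT libraries, 0 and 5.56 CPM in KO1 and 0 and 3.33 CPM in KO2. COL1A2 was at 0, 0.904 and 0.442 CPM in the WT libraries, 0 and 5.64 CPM in KO1 and 0 and 3.35 CPM in KO2. All libraries of experiment 1 were at 0 in both genes. COL1A2 missed the limit without the second WT library of experiment 2.

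Of the matrix proteases and inhibitors 12 of 44 tested members were lower and 12 higher (median -0.02, or 5, 7 and 9 lower and 5, 10 and 8 higher without each WT library), and MMP14 and MMP3 differed between the lines. MMP14, the membrane collagenase, was at 117, 115 and 107 CPM in the WT libraries, 0.7602 and 2.02 CPM in KO1 and 26.8 and 24.5 CPM in KO2 (log2 fold change -3.06 ± 0.87 SE, adjusted p = 0.0323). MMP3, stromelysin, was at 90.6, 195 and 104 CPM in the WT libraries, 1702 and 2041 CPM in KO1 and 298 and 418 CPM in KO2 (log2 fold change 3.21 ± 0.71 SE, adjusted p = 0.0105). Both genes moved the same way in both lines, by more in KO1 (adjusted p of the line difference 6.19e-09 and 1.13e-06). ADAM23, a catalytically inactive relative of ADAM12, rose from at most 0.0353 CPM in WT to between 2.62 and 6.54 CPM in KMT2D-KO libraries (8.31). MMP14 missed the limit when any 1 WT library was left out, and MMP3 as given above.

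**Figure D2:**
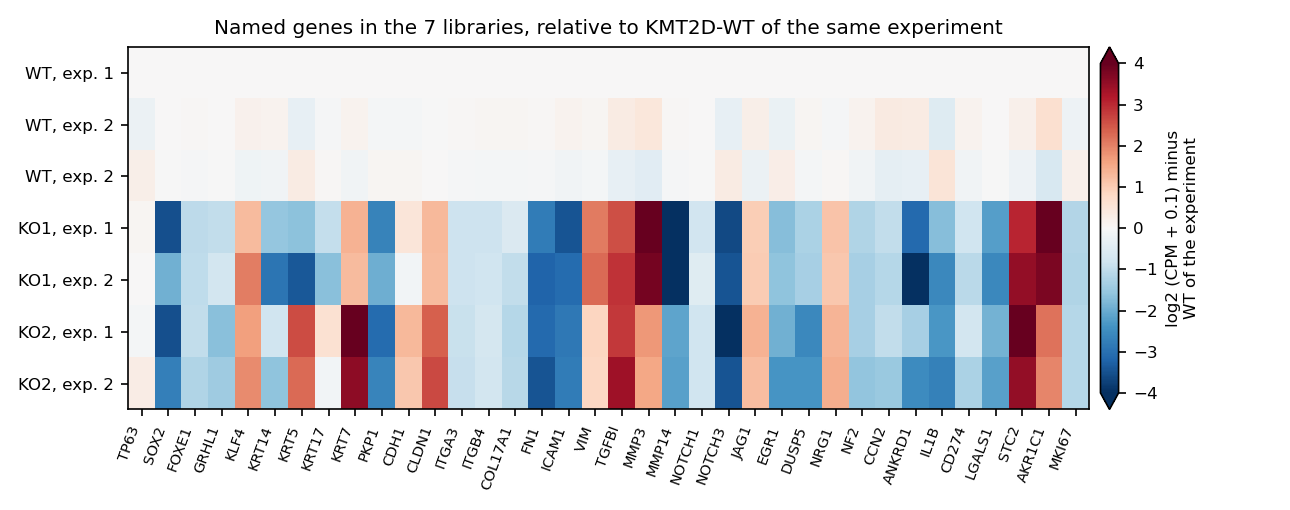
Log2 of CPM + 0.1 for 36 named genes in each of the 7 libraries, minus the mean of the WT libraries of the same experiment (red higher, blue lower, colours saturate at 4 and -4). The WT row of experiment 1 is 0 by construction. The rows of KO1 and KO2 share their colour in most genes, whereas KRT5 is blue in KO1 and red in KO2.

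Genes of the actin cytoskeleton and its regulators were lower in 21 of 87 and higher in 12 (median 0.04, or 10, 14 and 13 lower and 5, 8 and 7 higher without each WT library). The lines differed in 36 of these 87 genes, against 15.3% of all genes tested. FLNC, filamin C, was at 564, 739 and 604 CPM in the WT libraries, 84.96 and 95.03 CPM in KO1 and 124 and 160.2 CPM in KO2 (log2 fold change -2.41 ± 0.19 SE, adjusted p = 8.61e-05). DOCK4, an exchange factor for Rac, was at 12.6, 50.3 and 36.03 CPM in the WT libraries, 3.74 and 8.58 CPM in KO1 and 2.26 and 4.82 CPM in KO2 (log2 fold change -2.48 ± 0.26 SE, adjusted p = 2.87e-04). RAC2, a Rac GTPase of blood cells, was lower (-1.64) and lies on chromosome 22 (window median -0.82). LCP1, plastin 2, an actin bundler typical of leukocytes and of many carcinomas, was at 0.0432, 0.109 and 0.141 CPM in the WT libraries, 17.4 and 21.7 CPM in KO1 and 6.62 and 9.75 CPM in KO2 (log2 fold change 7.08 ± 0.57 SE, adjusted p = 8.72e-05). The leukocyte markers summed to 1.64 to 2.51 CPM in WT and 0.999 to 1.95 CPM in KMT2D-KO libraries. Their part in the level of LCP1 was not tested.

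Guidance cues, the ligands and receptors first known from growing axons, were lower in 14 and higher in 11 of 58 tested (median -0.11, or 7, 9 and 10 lower and 7, 7 and 8 higher without each WT library). Among ligands, SEMA3F was at 12.02, 14.1 and 16.8 CPM in the WT libraries, 1.46 and 2.43 CPM in KO1 and 1.797 and 1.89 CPM in KO2 (log2 fold change -2.85 ± 0.17 SE, adjusted p = 2.71e-05), and SEMA3B (-3.26) and the netrin NTN1 (-1.90) were lower too. SLIT2, the ligand of ROBO receptors, was at 0, 0 and 0.0353 CPM in the WT libraries, 5.45 and 5.38 CPM in KO1 and 3.18 and 4.12 CPM in KO2 (log2 fold change 8.13 ± 0.58 SE, adjusted p = 5.68e-05). Its receptor ROBO1 was at 1.69, 1.28 and 1.22 CPM in the WT libraries, 13.5 and 14.9 CPM in KO1 and 8.73 and 12.03 CPM in KO2 (log2 fold change 3.18 ± 0.24 SE, adjusted p = 7.37e-05). The ligand and its receptor were thus both higher in every KMT2D-KO library, and so was NRP1, a coreceptor of class 3 semaphorins (log2 fold change 4.34 ± 0.74 SE, adjusted p = 0.00313), by more in KO1 than in KO2 (adjusted p = 1.97e-06).

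Growth factor signals start at receptor tyrosine kinases of the cell surface. EGFR, the main growth factor receptor of squamous cells, was at 684, 1033 and 914 CPM in the WT libraries, 673 and 966 CPM in KO1 and 520.5 and 694 CPM in KO2, and the groups overlapped (log2 fold change -0.22 ± 0.13 SE, adjusted p = 0.28). ERBB2, its coreceptor, was slightly lower (-0.52). NRG1, the ligand of ERBB3 and ERBB4, was at 154, 136 and 148 CPM in the WT libraries, 340.2 and 299.8 CPM in KO1 and 397 and 386 CPM in KO2 (log2 fold change 1.27 ± 0.11 SE, adjusted p = 1.22e-04). LRIG1, a feedback inhibitor of EGFR, was higher in every KMT2D-KO library (log2 fold change 2.53 ± 0.39 SE, adjusted p = 0.00194). In the EGFR family list 3 of 17 tested members were lower and 3 higher (median 0.27, or 1, 1 and 2 lower and 3, 3 and 3 higher without each WT library). Among other receptor kinases and growth factors 9 of 46 tested members were lower and 10 higher (median 0.07, or 6, 7 and 7 lower and 6, 7 and 5 higher without each WT library). FGFR4 was at 5.54, 5.38 and 6.08 CPM in the WT libraries, 28.2 and 21.04 CPM in KO1 and 27.7 and 26.9 CPM in KO2 (log2 fold change 2.16 ± 0.14 SE, adjusted p = 4.03e-05), in a window of chromosome 5 with a median of 0.65. ROR1, a receptor of Wnt ligands, was higher (4.85). The lymphangiogenic factor VEGFC (-1.47) and the neurotrophin receptor NGFR (-2.74) were lower, and NGFR shares 27.2% of its exonic bases.

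Below the receptors, 13 of 43 ERK feedback and immediate early genes were lower and 8 higher (median -0.30, or 5, 7 and 10 lower and 6, 5 and 5 higher without each WT library). EGR1, an immediate early transcription factor, was at 111, 119 and 175 CPM in the WT libraries, 33.96 and 47.8 CPM in KO1 and 28.9 and 28.3 CPM in KO2 (log2 fold change -1.90 ± 0.19 SE, adjusted p = 2.62e-04). DUSP1, a phosphatase of MAP kinases, was at 62.7, 60.1 and 49.6 CPM in the WT libraries, 25.3 and 20.4 CPM in KO1 and 27.98 and 15.9 CPM in KO2 (log2 fold change -1.45 ± 0.13 SE, adjusted p = 1.55e-04). DUSP5, its nuclear relative for ERK, was lower (-1.77) and SPRY2, an inhibitor of receptor signalling, higher (1.42). The groups were apart in all of these genes. EGR1 lies in a window of chromosome 5 with a median of -0.38, and DUSP1 in another with a median of 0.65. DUSP5 missed the limit without the WT library of experiment 1.

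In TGF-beta and BMP signalling, 8 of 51 tested members were lower and 13 higher (median 0.08, or 4, 5 and 7 lower and 5, 9 and 9 higher without each WT library). TGFB2, a ligand, was at 6.36, 4.07 and 6.22 CPM in the WT libraries, 7.54 and 7.23 CPM in KO1 and 36.8 and 43.7 CPM in KO2, with log2 fold changes of 2.88 in KO2 and 0.43 in KO1. Of the proteins that store latent TGF-beta, LTBP2 was lower (log2 fold change -1.39 ± 0.12 SE, adjusted p = 1.16e-04) and LTBP1 higher (log2 fold change 4.29 ± 0.50 SE, adjusted p = 4.53e-04). BMP6, a BMP ligand, was higher (3.06), and SMAD4, the shared mediator, was at 15.2, 18.7 and 16.6 CPM in the WT libraries, 16.4 and 19.2 CPM in KO1 and 16.7 and 21.04 CPM in KO2 with no call (log2 fold change 0.16 ± 0.11 SE, adjusted p = 0.31). TGFB2 missed the limit when any 1 WT library or any 1 KO2 library was left out, and BMP6 without the WT library of experiment 1.

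Of the genes of Wnt signalling, which holds beta-catenin stable, 14 of 47 tested members were lower and 8 higher (29.8% and 17%, against 11.7% and 13% of all genes tested). Their median was -0.04, with 6, 10 and 10 lower and 5, 5 and 5 higher without each WT library. WNT7A was at 51.98, 63.2 and 46.8 CPM in the WT libraries, 25.7 and 22.2 CPM in KO1 and 10.1 and 6.31 CPM in KO2 (log2 fold change -1.79 ± 0.42 SE, adjusted p = 0.0144). WNT3A was at 3.03, 3.898 and 4.13 CPM in the WT libraries, 0.253 and 0.434 CPM in KO1 and 0.667 and 0.596 CPM in KO2 (log2 fold change -2.86 ± 0.30 SE, adjusted p = 2.68e-04). Both ligands were lower in every KMT2D-KO library. The other lower ligands were WNT5B, WNT7B, WNT9A and WNT10A, with WNT10B and WNT8B higher. CTNNB1, beta-catenin, was at 309, 324 and 289 CPM in the WT libraries, 373 and 348 CPM in KO1 and 346 and 349 CPM in KO2 with no call (log2 fold change 0.20 ± 0.08 SE, adjusted p = 0.0948). TNIK, a kinase of the TCF complex, was at 0, 0.0312 and 0.0353 CPM in the WT libraries, 6.34 and 8.67 CPM in KO1 and 2.82 and 4.35 CPM in KO2 (log2 fold change 7.68 ± 0.60 SE, adjusted p = 8.05e-05). WNT7A missed the limit when any 1 WT library was left out. In the Hedgehog list 1 of 13 tested members were lower and 3 higher (median 0.08, or 0, 1 and 1 lower and 2, 2 and 3 higher without each WT library), with the transcription factor GLI2 at 4.37, 3.18 and 2.44 CPM in the WT libraries, 9.82 and 10.6 CPM in KO1 and 16.8 and 15.96 CPM in KO2 (log2 fold change 1.998 ± 0.26 SE, adjusted p = 9.06e-04).

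Notch receptors and their ligands sit on neighbouring cells. NOTCH3 was at 43.03, 22.4 and 35.5 CPM in the WT libraries, 3.42 and 2.49 CPM in KO1 and 2.31 and 2.49 CPM in KO2 (log2 fold change -3.68 ± 0.20 SE, adjusted p = 2.40e-05). NOTCH1, the receptor that drives keratinocyte differentiation, was at 75.4, 75.5 and 73.2 CPM in the WT libraries, 43.9 and 53.2 CPM in KO1 and 43.2 and 43.1 CPM in KO2 (log2 fold change -0.69 ± 0.10 SE, adjusted p = 0.00127). JAG1, a ligand, was at 26.3, 33.4 and 23.6 CPM in the WT libraries, 52.5 and 56.8 CPM in KO1 and 69.5 and 65.7 CPM in KO2 (log2 fold change 1.15 ± 0.15 SE, adjusted p = 9.31e-04), in a window of chromosome 20 with a median of 0.55. The genotypes did not overlap in these 3 genes. Over the list 7 of 35 tested members were lower and 4 higher (median -0.09, or 4, 6 and 7 lower and 3, 4 and 3 higher without each WT library).

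Among Hippo genes and targets of YAP, 14 of 39 tested members were lower and 5 higher (35.9% and 12.8%, against 11.7% and 13% of all genes tested). Their median was -0.09, with 5, 7 and 7 lower and 3, 3 and 3 higher without each WT library. The targets ANKRD1 and CCN2 were both lower. ANKRD1 was at 38.96, 122 and 76.2 CPM in the WT libraries, 4.43 and 2.67 CPM in KO1 and 15.3 and 16.6 CPM in KO2 (log2 fold change -2.86 ± 0.64 SE, adjusted p = 0.0113). CCN2 was at 147, 226 and 137 CPM in the WT libraries, 74.7 and 79.4 CPM in KO1 and 74.3 and 62.05 CPM in KO2 (log2 fold change -1.21 ± 0.18 SE, adjusted p = 0.00148). The genotypes did not overlap in either gene. NF2, an upstream activator of the kinases that restrain YAP, was at 404, 353 and 286 CPM in the WT libraries, 177 and 128 CPM in KO1 and 162 and 106 CPM in KO2 (log2 fold change -1.37 ± 0.11 SE, adjusted p = 8.36e-05) and lies on chromosome 22 (window median -0.83). YAP1 itself was lower by a small amount (-0.28, adjusted p = 0.0243), a call lost without the WT library of experiment 1, without the second of experiment 2 or without the KO1 library of experiment 2. FOXF2, a forkhead factor of mesenchyme, had no count in WT and was at 2.66 and 3.76 CPM in KO1 and 0.667 and 0.701 CPM in KO2 (at least 93.4-fold). ANKRD1 missed the limit without the WT library of experiment 1.

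**Figure D3:**
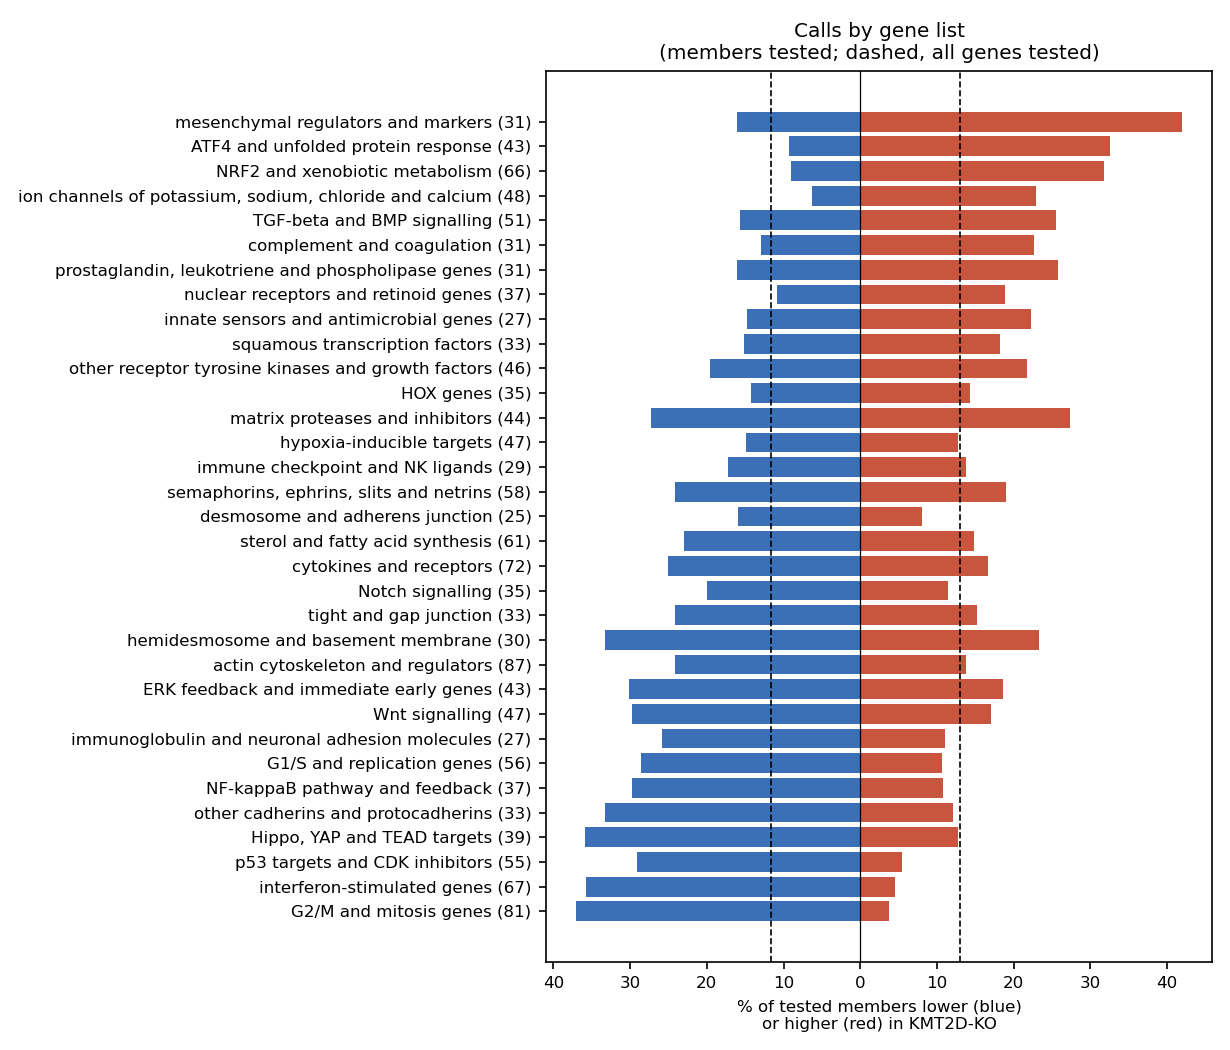
Share of tested members called lower (blue, left) or higher (red, right) in KMT2D-KO for gene lists with at least 25 tested members (number in brackets), with dashed lines at the shares over all genes tested, 11.7% and 13%. Lists are ordered by the share higher minus the share lower, from mesenchymal genes (41.9% higher, 16.1% lower) at one end to G2/M genes (3.70% higher, 37.0% lower) at the other.

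Interferon-stimulated genes encode antiviral proteins and were lower more often than higher. Of 67 tested, 24 were lower (35.8%, against 11.7% of all and 15.7% of protein-coding genes) and 3 higher, with a median log2 fold change of -0.36. IFIT2, an inhibitor of viral translation, was at 3.55, 6.24 and 6.89 CPM in the WT libraries, 0.7602 and 1.19 CPM in KO1 and 0.975 and 2.402 CPM in KO2 (log2 fold change -1.92 ± 0.27 SE, adjusted p = 0.00119). APOL6 was at 12.5, 19.6 and 26.3 CPM in the WT libraries, 1.901 and 5.78 CPM in KO1 and 5.801 and 7.63 CPM in KO2 (log2 fold change -1.74 ± 0.29 SE, adjusted p = 0.00303) and APOL3 was lower too (-2.78). Both are neighbours on chromosome 22 (window median -0.82) and have close copies beside them. All KMT2D-KO libraries lay below all WT libraries in IFIT2 and APOL6. IFIT2 lies in a window of chromosome 10 with a median of -0.37. LY6E was higher (1.04), in a window of chromosome 8 with a median of 0.41. The lower members also included IFITM1, TRIM22, IFIT1, IFIT3, IRF1, IRF7, IRF9, MX1 and USP18, and the cytokine list held the receptor genes IFNAR1, IFNAR2 and IFNGR2 among its lower and IFNGR1 among its higher members. IFIT1 and IFIT3 share the window of IFIT2, IRF1 lies in one of chromosome 5 (-0.38) and USP18 in one of chromosome 22 (-0.70). With the median of each gene's window subtracted, a step added after the data had been seen, the list median was -0.39. Without each WT library the list held 12, 17 and 16 lower and 2, 2 and 2 higher members, and 7 lower ones with experiment left out of the model. APOL3 missed the limit without the WT library of experiment 1.

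Class I molecules show peptides from within the cell to T cells. Of 22 genes of this path, 7 were lower and 4 higher (median -0.02, or 4, 5 and 5 lower and 1, 2 and 2 higher without each WT library). ERAP2, which trims peptides for loading, was at 34.1, 54.03 and 55.3 CPM in the WT libraries, 16.03 and 20.98 CPM in KO1 and 15.1 and 22.9 CPM in KO2 (log2 fold change -1.25 ± 0.09 SE, adjusted p = 7.13e-05). It lies in a window of chromosome 5 with a median of -0.40. NLRC5, the transactivator of class I genes, was at 17.5, 15.95 and 16.1 CPM in the WT libraries, 8.11 and 7.65 CPM in KO1 and 8.62 and 9.503 CPM in KO2 (log2 fold change -0.96 ± 0.13 SE, adjusted p = 9.31e-04). HLA-B was higher (0.43), and B2M, the shared light chain (-0.01, adjusted p = 0.97), gave no call. B2M was at 222, 257 and 269.5 CPM in the WT libraries, 211 and 191 CPM in KO1 and 292 and 288 CPM in KO2. HLA-DQB1, a class II chain, was at 0.0432, 0.0624 and 0.212 CPM in the WT libraries, 14.95 and 7.26 CPM in KO1 and 5.801 and 1.61 CPM in KO2 (log2 fold change 5.54 ± 0.81 SE, adjusted p = 0.00149). Reads of HLA genes can fall on several of them and depend on alleles, so these counts are uncertain. HLA-B missed the limit without the WT library of experiment 1.

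Within the interleukin 1 family, IL1B was at 45.9, 24.2 and 49.5 CPM in the WT libraries, 14.001 and 5.77 CPM in KO1 and 9.14 and 5.21 CPM in KO2 (log2 fold change -2.46 ± 0.28 SE, adjusted p = 4.07e-04). IL1A, its neighbour on chromosome 2, was at 93.2, 173 and 152 CPM in the WT libraries, 262 and 456 CPM in KO1 and 151 and 269 CPM in KO2 (log2 fold change 1.15 ± 0.22 SE, adjusted p = 0.00552). IL1B was lower in every KMT2D-KO library, whereas in IL1A the genotypes were apart within each experiment and overlapped across them. CSF3, the granulocyte growth factor, was lower (-2.17). Over the list 18 of 72 tested members were lower and 12 higher (median -0.09, or 8, 11 and 12 lower and 3, 5 and 4 higher without each WT library). In the NF-kappaB list 11 of 37 tested members were lower and 4 higher (median -0.05, or 3, 5 and 7 lower and 2, 3 and 3 higher without each WT library), with TNFAIP2, a target, at 440.3, 258 and 325 CPM in the WT libraries, 125 and 96.4 CPM in KO1 and 252 and 135 CPM in KO2 (log2 fold change -1.29 ± 0.22 SE, adjusted p = 0.0033). NFKB1, the p50 subunit, was at 132, 117 and 107 CPM in the WT libraries, 111 and 111 CPM in KO1 and 133 and 122 CPM in KO2 without a call (-0.01, adjusted p = 0.97). IL1A and CSF3 missed the limit without the WT library of experiment 1, and CSF3 also when any of the other WT libraries or the KO2 library of experiment 2 was left out.

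Both ligands of the checkpoint receptor PD-1 were lower. CD274, PD-L1, was at 22.3, 46.1 and 37.8 CPM in the WT libraries, 12.7 and 19.7 CPM in KO1 and 13.4 and 17.4 CPM in KO2 (log2 fold change -1.03 ± 0.13 SE, adjusted p = 7.50e-04). PDCD1LG2, PD-L2, was at 3.20, 4.87 and 3.57 CPM in the WT libraries, 1.27 and 2.47 CPM in KO1 and 1.08 and 1.86 CPM in KO2 (log2 fold change -1.13 ± 0.23 SE, adjusted p = 0.00763). In both, all KMT2D-KO libraries lay below all WT libraries. LGALS1, galectin 1, was at 239.7, 111 and 109.5 CPM in the WT libraries, 51.7 and 18.2 CPM in KO1 and 64.1 and 24.2 CPM in KO2 (log2 fold change -2.25 ± 0.13 SE, adjusted p = 2.63e-05) and lies on chromosome 22 (window median -0.82). Over the list of checkpoint and NK cell ligands 5 of 29 tested members were lower and 4 higher (median -0.04, or 3, 3 and 3 lower and 2, 3 and 3 higher without each WT library). Innate defence genes include secreted binders and receptors of bacterial products. LCN2, an antibacterial siderophore binder, was at 1.95, 0.7797 and 0.725 CPM in the WT libraries, 8.55 and 3.36 CPM in KO1 and 18.4 and 6.19 CPM in KO2 (log2 fold change 2.71 ± 0.34 SE, adjusted p = 6.67e-04). TLR2, a receptor of bacterial lipoproteins, was at 1.297, 2.31 and 2.21 CPM in the WT libraries, 6.46 and 11.8 CPM in KO1 and 5.596 and 9.35 CPM in KO2 (log2 fold change 2.22 ± 0.18 SE, adjusted p = 8.55e-05). The list of innate sensors and antimicrobial genes had 4 lower and 6 higher members of 27 (median -0.04, or 2, 1 and 3 lower and 4, 5 and 5 higher without each WT library). Complement and coagulation genes had 4 lower and 7 higher of 31 (median 0.21, or 3, 3 and 3 lower and 4, 4 and 5 higher without each WT library), among them the protease C1S of the classical pathway (1.81). PDCD1LG2 missed the limit without the WT library of experiment 1. Chemokines gave 1 lower and 1 higher of 12 tested (median -0.16, or 0, 1 and 1 lower and 1, 1 and 1 higher without each WT library).

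Mitosis and replication genes were lower more often than higher, by small amounts. Of 81 G2/M genes tested, 30 were lower and 3 higher (37.0% and 3.7%, against 11.7% and 13% of all genes tested). Their median was -0.22, and -0.26 with the window medians subtracted. Of 56 G1/S genes, 16 were lower and 6 higher (28.6% and 10.7%). Their median was -0.17, with 7, 9 and 11 lower and 1, 2 and 2 higher without each WT library. Beside MKI67, most lower members fell by less than 1 on the log2 scale. CDC45, a part of the replicative helicase (-1.20), and MCM5, another (-1.05), lie on chromosome 22 (window medians -0.70 and -0.82). Higher members were CCND1, cyclin D1 (log2 fold change 0.75 ± 0.11 SE, adjusted p = 0.00134), CDC25B, a phosphatase of mitotic entry (0.84), and CDC20, an activator of the anaphase-promoting complex (0.42). CDC25B lies in a window of chromosome 20 with a median of 0.52. CCND1 was at 353, 418 and 338 CPM in the WT libraries, 534 and 653 CPM in KO1 and 660.1 and 614 CPM in KO2, so all KMT2D-KO libraries were above all WT libraries. Without each WT library the G2/M list held 13, 26 and 24 lower and 2, 1 and 1 higher members, with 3 lower ones when experiment was left out of the model. CDC20 missed the limit when any 1 WT library of experiment 2 was left out. Calls also went with gene length, since 8.59% of the shortest 10% and 22.1% of the longest 10% of protein-coding genes were lower, and 18.5% and 15.9% higher. The median exonic length was 4321 bases in the G2/M list, near the 4766 of the fifth of 10 length classes, and the part of length was not tested.

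Targets of p53 and inhibitors of cyclin-dependent kinases were lower in 16 of 55 and higher in 3 (29.1% and 5.45%, against 11.7% and 13% of all genes tested). Their median was -0.16, with 7, 11 and 10 lower and 1, 2 and 1 higher without each WT library. CDKN2C, p18, was at 74.7, 43.1 and 58.1 CPM in the WT libraries, 28.1 and 22.9 CPM in KO1 and 18.7 and 17.6 CPM in KO2 (log2 fold change -1.46 ± 0.18 SE, adjusted p = 5.83e-04). CDKN1A, p21, was at 79.6, 61.4 and 34.9 CPM in the WT libraries, 46.2 and 47.5 CPM in KO1 and 22.5 and 17.1 CPM in KO2, where the groups overlapped and no call was made (log2 fold change -0.83 ± 0.37 SE, adjusted p = 0.14). BTG2, an antiproliferative target of p53, was higher in every KMT2D-KO library (log2 fold change 1.67 ± 0.20 SE, adjusted p = 5.45e-04).

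Stress and detoxification genes were higher more often than lower. In the ATF4 and unfolded protein list 4 of 43 tested members were lower and 14 higher (9.3% and 32.6%, against 11.7% and 13% of all genes tested). Their median was 0.27, with 2, 3 and 4 lower and 7, 4 and 4 higher without each WT library. STC2, a secreted stanniocalcin induced by ATF4, was at 5.84, 6.49 and 4.82 CPM in the WT libraries, 48.97 and 65.2 CPM in KO1 and 96.3 and 65.3 CPM in KO2 (log2 fold change 3.57 ± 0.24 SE, adjusted p = 4.75e-05). It lies in a window of chromosome 5 with a median of 0.65. DDIT4, an inhibitor of mTORC1 signalling, was higher (1.32) and shares 41.2% of its exonic bases. XBP1, a transcription factor of the unfolded protein response on chromosome 22 (-0.49, window median -0.83), and PPP1R15A, the phosphatase subunit GADD34 (-0.53), were lower. In the NRF2 and xenobiotic list 6 of 66 tested members were lower and 21 higher (9.09% and 31.8%). Their median was 0.18, with 2, 4 and 6 lower and 11, 18 and 17 higher without each WT library. AKR1C2 was at 0.519, 0.296 and 0.141 CPM in the WT libraries, 6.53 and 4.43 CPM in KO1 and 2.67 and 2.49 CPM in KO2 (log2 fold change 3.66 ± 0.47 SE, adjusted p = 7.52e-04), and AKR1C1 was higher too (3.16). These aldo-keto reductases are near-identical, which makes the counts of each uncertain. HMOX1, heme oxygenase 1, was at 43.4, 36.1 and 16.6 CPM in the WT libraries, 8.87 and 6.59 CPM in KO1 and 4.93 and 4.28 CPM in KO2 (log2 fold change -2.43 ± 0.30 SE, adjusted p = 6.52e-04), against the direction of the list, and lies on chromosome 22 (window median -0.82). Without the WT library of experiment 1, XBP1, PPP1R15A and AKR1C1 missed the limit, PPP1R15A also without the first of experiment 2.

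**Figure D4:**
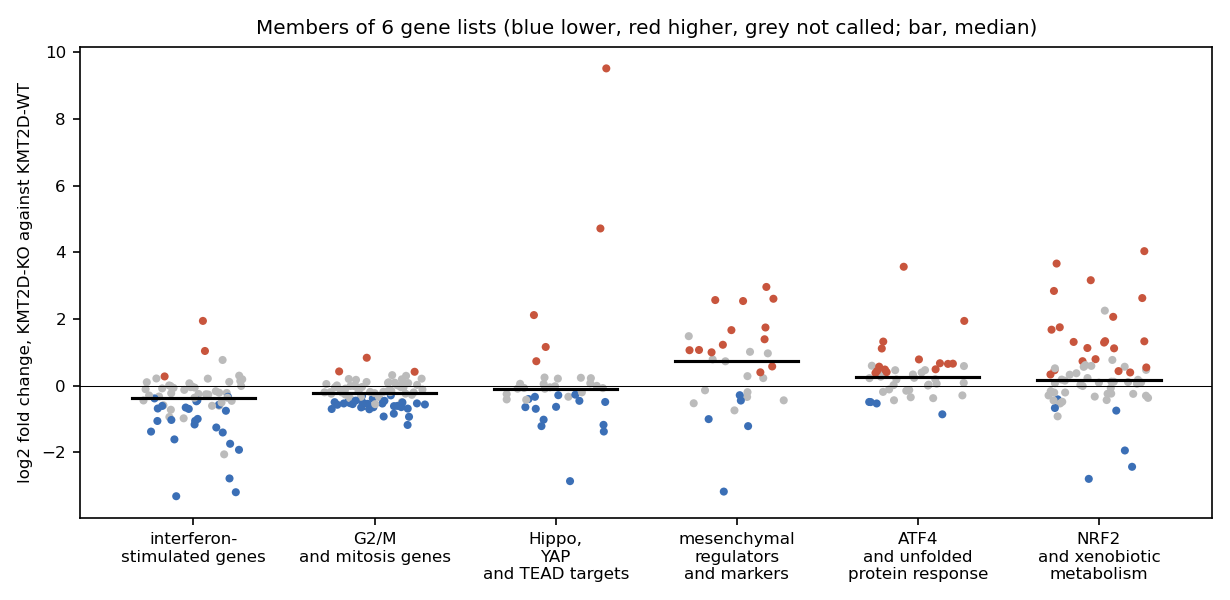
Log2 fold change of every tested member of 6 gene lists, 1 point per gene (blue lower, red higher, grey no call), with a bar at the median. The medians are -0.36 for interferon-stimulated genes, -0.22 for G2/M, -0.09 for Hippo, 0.73 for mesenchymal, 0.27 for ATF4 and 0.18 for NRF2 genes.

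Prostaglandin genes had 5 lower and 8 higher members of 31 (median 0.07, or 2, 3 and 3 lower and 4, 3 and 3 higher without each WT library). PTGS2, cyclooxygenase 2, was at 0.476, 0.343 and 0.3004 CPM in the WT libraries, 2.85 and 4.995 CPM in KO1 and 0.719 and 1.701 CPM in KO2 (log2 fold change 2.91 ± 0.61 SE, adjusted p = 0.00865). PTGER4, a receptor of prostaglandin E2, was higher as well (3.39). Both lost the call when any 1 WT library of experiment 2 was left out, and PTGER4 also without the WT library of experiment 1 or the KO1 library of experiment 2. Hypoxia-inducible genes were called at shares near those of all protein-coding genes, with 7 lower and 6 higher of 47 (median -0.02, or 3, 4 and 6 lower and 5, 4 and 5 higher without each WT library). EPAS1, the oxygen-regulated factor HIF-2 alpha, was at 63.4, 78.4 and 80.4 CPM in the WT libraries, 40.5 and 43.1 CPM in KO1 and 31.2 and 43.97 CPM in KO2 (log2 fold change -0.85 ± 0.10 SE, adjusted p = 5.48e-04). NDRG1, a target, was at 5.75, 6.64 and 7.85 CPM in the WT libraries, 52.01 and 46.8 CPM in KO1 and 21.3 and 18.2 CPM in KO2 (log2 fold change 2.35 ± 0.40 SE, adjusted p = 0.00313). Of 35 HOX genes 5 were lower and 5 higher (median -0.03, or 0, 3 and 1 lower and 2, 2 and 2 higher without each WT library), and the rises included the last genes of the A and D clusters, HOXA13 (2.20, adjusted p = 2.81e-04) and HOXD13 (1.30, adjusted p = 9.93e-04). Ion channels had 3 lower and 11 higher of 48 (median 0.14, or 1, 1 and 2 lower and 8, 6 and 8 higher without each WT library), among them the sodium-activated potassium channel KCNT2 (7.03), which had 0.0353 CPM in 1 WT library, none in the other two and at least 1.33 CPM in each KMT2D-KO library. Nuclear receptors had 4 lower and 7 higher of 37 (median 0.05, or 0, 2 and 0 lower and 4, 5 and 5 higher without each WT library). Mucins had 2 lower and 2 higher of 12 (median 0.26, or 2, 2 and 2 lower and 1, 1 and 2 higher without each WT library). HLA class II genes had 1 lower and 3 higher of 9 (median 2.14, or 0, 0 and 0 lower and 2, 1 and 1 higher without each WT library). Cancer-testis antigens had 0 lower and 1 higher of 8 (median 1.00, or 0, 0 and 0 lower and 0, 0 and 0 higher without each WT library). Sterol and fatty acid genes had 14 lower and 9 higher of 61 (median -0.02, or 5, 10 and 9 lower and 1, 3 and 2 higher without each WT library).

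Some lower and higher genes lay together on chromosomes. Genes tested were put into windows of 10 Mb, of which 281 held at least 20. The 3 windows of chromosome 22 from 10 to 40 Mb had medians of -0.70, -0.83 and -0.82, and of their 55, 140 and 145 genes 26, 84 and 83 were lower. The medians in KO1 alone were -0.73, -0.84 and -0.82, and in KO2 alone -0.61, -0.85 and -0.89. The remaining windows of that chromosome, from 40 and from 50 Mb on, were at 0.09 and -0.02. The fourth window with the smallest median was on chromosome 7 from 80 to 90 Mb (-0.56). At the other end, the window of chromosome X from 100 to 110 Mb was at 0.78 with 44 of 86 genes higher, and the windows of chromosome 5 from 150 to 160, 170 to 180 and 180 to 190 Mb were at 0.66, 0.65 and 0.65. Windows with a median of at most -0.3 held 1328 genes, 39.2% of them lower, and those of at least 0.3 held 2006 genes, 36.0% of them higher. In the 230 windows between, 10.8% of 16680 genes were lower and 11.02% higher, against 11.7% and 13% of all genes tested. These windows held most of the genes tested and with them most calls, 1804 lower and 1838 higher. Window medians are given above beside only some of the named genes, and others also lie in shifted windows. All libraries hold RNA, so nothing here measures the DNA of these stretches. Set against the median of their own window, 1096 of 2364 lower and 1193 of 2599 higher genes still differed by at least 1.5-fold.

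**Figure D5:**
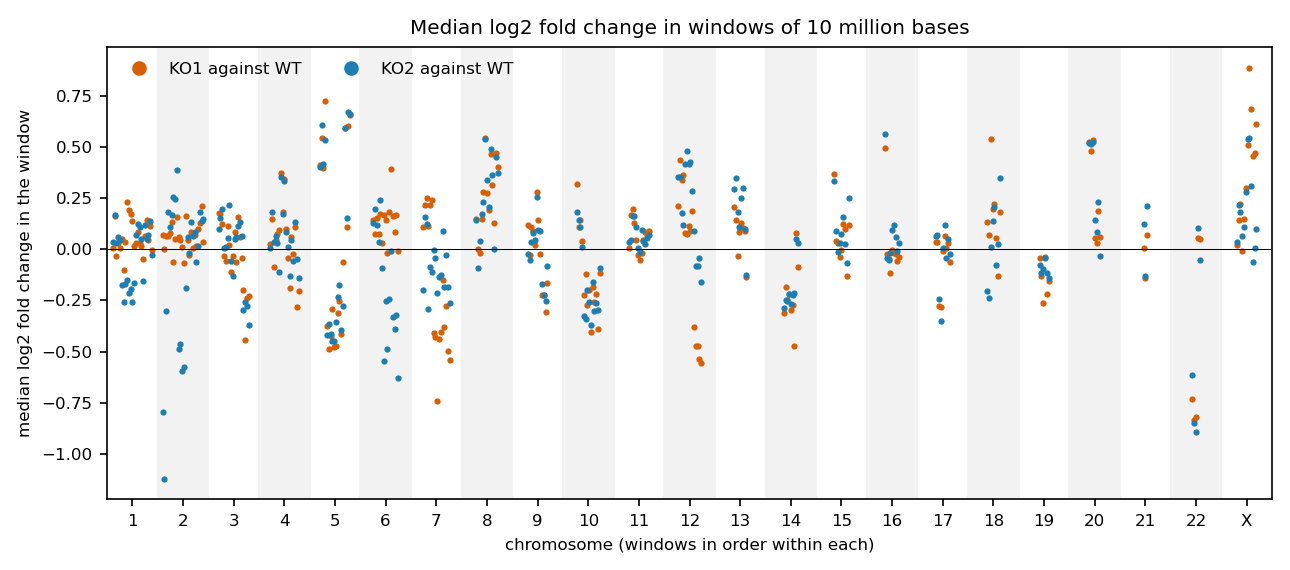
Median log2 fold change of tested genes in windows of 10 Mb with at least 20 of them, in order along each chromosome, with 1 point for KO1 against WT (orange) and 1 for KO2 against WT (blue). The first 3 windows of chromosome 22 lie between -0.61 and -0.89 in each line, whereas a window of chromosome 2 is low in KO2 (-1.12) and not in KO1 (0.00).

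KO1 and KO2 were also each compared with WT alone. Of the called genes, 2198 of 2384 lower and 2408 of 2658 higher ones were called the same way in each line, and since both lines share the WT libraries and the genes were called with both lines together, nothing is read from that agreement. The lines themselves differed in 3116 genes (15.3% of those tested), 394 of them among the lower and 488 among the higher genes. Called in opposite directions were 154 genes, 93 higher in KO1 and lower in KO2 and 61 the other way, KRT5 among the latter. MUC4, a membrane mucin, was at 0.346, 0.312 and 0.124 CPM in the WT libraries, 0.633 and 0.482 CPM in KO1 and 16.99 and 21.6 CPM in KO2 (log2 fold change 5.36 ± 1.49 SE, adjusted p = 0.0288). PRAME, an antigen of tumours and testis on chromosome 22 (window median -0.83), was at 0, 0.172 and 0.0353 CPM in the WT libraries, 0.1901 and 0.418 CPM in KO1 and 3.85 and 8.08 CPM in KO2 (log2 fold change 5.48 ± 1.39 SE, adjusted p = 0.0201). Both were high in KO2 and not in KO1, and both calls were lost when any 1 WT library was left out, that of MUC4 also without any 1 KO2 library. Windows also separated the lines. The window of chromosome 2 from 10 to 20 Mb had a median of -1.12 in KO2 and 0.00 in KO1, and that of chromosome 12 from 120 to 130 Mb one of -0.54 in KO1 and -0.04 in KO2.

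The same comparison without glucose, with both lines together, gave each gene a second set of values. Its libraries are not shared with this one but come from the same WT, KO1 and KO2 lines. Of the lower genes that were tested there, 1636 of 2284 were called lower and 25 higher, and of the higher genes 1854 of 2423 were called higher and 52 lower. The shares of all genes called without glucose are not given here, so nothing is read from these counts. A test of the difference between the effects called 2105 of 18678 genes (11.3%), 356 of 2343 lower and 385 of 2576 higher ones. DUSP1 and CCN2 changed direction. DUSP1 was lower with glucose (-1.45) and higher without it (0.86, adjusted p of the difference 6.90e-05), and CCN2 likewise (-1.21 and 1.44, adjusted p = 1.75e-04). PPP1R15A (-0.53 and 1.63, adjusted p = 6.90e-05) and XBP1 (-0.49 and 0.66, adjusted p = 0.00527) did the same. ITGB4 was lower with glucose and near 0 without it (-0.77 and 0.05, adjusted p = 0.00246). KLF4 was higher in both, by more without glucose (1.78 and 3.60, adjusted p = 0.00139), and so was JAG1 (1.15 and 3.12, adjusted p = 0.0171). DSCAM (-9.80 and -11.31), NOTCH3 (-3.68 and -3.45) and ICAM1 (-3.02 and -2.59) were lower in both, and the test of the difference gave no call.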

How the data were processed

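PolyA RNA of SCC23 cells was sequenced, and the authors mapped reads with HISAT2 to GRCh38 (hg38 in the processing notes) and counted them per gene name with featureCounts 2.0.3 on Ensembl 102, primary alignments, without strand. The deposited values are raw counts for 59471 gene names. Per the file headers, both mates of a pair were counted in the 4 libraries of experiment 2 kept in glucose. Nothing in the labels says that the libraries came from separate cultures, so p-values measure the spread between these libraries, which may be technical. The 4 KMT2D-KO libraries come from 2 lines, each sequenced in both experiments, and the fit of both lines together treats all libraries as independent. Its p-values therefore do not measure the spread between independently made knockout or WT lines. No 2 libraries held the same counts (chi-square per gene between 25.8 and 85.6 for pairs of 1 genotype and experiment).

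The quasi-likelihood test of edgeR 4.0.16 (R 4.3.3, two-sided) was run on these counts after TMM scaling, for genes that passed filterByExpr at a minimum count of 10, with genotype as the term of interest and experiment as a covariate. Adjusted p-values (Benjamini-Hochberg, over all genes) under 0.05 made a call. The paper names DESeq2 with no covariate. The experiment serves as a block because the titles give it, and differences between experiments correlated between WT and KMT2D-KO libraries (0.865 over 20423 genes). The standard error is the absolute log2 fold change divided by the square root of the F statistic. A fold change against a group at 0 is a lower bound set against 3 counts over that group. The precision of each comparison is set by the spread between libraries, and counting error covers only part of it. The lines were compared in 1 fit of WT, KO1 and KO2, and glucose conditions in 1 fit of all 14 libraries. Methods were tested on simulated data.

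The comparison and the 45 gene lists, written from general knowledge, were chosen with earlier results of these data known. Named genes are KMT2D, the 10 largest log2 fold changes in each direction among called genes with a mean of at least 2 CPM and the genotypes apart in each experiment, the 8 largest differences in CPM in each direction, up to 3 members of each list in each direction with a mean of at least 1 CPM, and 21 pathway genes called or not, some of which are not reported here. Genes given by name or log2 fold change alone beyond these were chosen after their values were seen. Promoters come from RefSeq (GRCh38.p14) (2 genes a direction are shown in place of 3 planned) and matched 11771 of 20423 genes tested (57.6%). The promoters shown do not follow rank alone. FABP5 fell by more than GAS6, and MAL2 had a larger lower bound than TBL1X, but both lie on chromosome 8, which the plan left out. Rank followed the fitted log2 fold change and not the lower bound, by which LPCAT2 and FAM155B also exceeded TBL1X. As alternatives, each library was left out, each line and each experiment was taken alone, DESeq2 1.42.0 was run with experiment and without it, the experiment term was dropped from edgeR, scaling was by RLE or by library size, filters were changed, counts of experiment 2 were halved, a fold limit was set and all 14 libraries were fitted together. The window steps were added after the data had been seen. Guide sequences were not used here.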

Additional observations from a re-analysis of the deposited data

Results flagged for a closer look

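Among the 4 KMT2D-KO libraries, 1 library stood apart from the other 3 by Dixon's 95% limit for 4 values in 8 of 165 genes, a share that chance alone gives in about 1 of 20 groups. The values of these libraries were FABP5 (0.0321 CPM), AC105460.1 (0.0482 CPM), GAS6 (0 CPM), NGFR (0.386 CPM), CTNNB1 (373 CPM), NOTCH1 (53.2 CPM), NOTCH3 (3.42 CPM) and XBP1 (72.8 CPM).

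The lines differed (adjusted p under 0.05, edgeR's quasi-likelihood test in 1 fit of WT, KO1 and KO2) in 68 of these 165 genes, with the log2 difference KO2 minus KO1 in brackets. Over all genes tested the share was 15.3%. Most of the 165 were chosen by their values, so nothing is read from the count. Higher in KO2 than in KO1 were MUC4 (5.23), KRT5 (4.97), PRAME (4.30), MMP14 (3.91), TAGLN (3.03), KRT7 (2.66), TGFB2 (2.46), ANKRD1 (2.40), APOL3 (2.25), TBL1X (1.89), KRT17 (1.57) and CLDN1 (1.25). The difference was smaller for KRT14 (1.01), CDH1 (1.00), LCN2 (0.99), KMT2D (0.93), BARX2 (0.81), COL18A1 (0.79), APOL6 (0.78), TNFAIP2 (0.74), GLI2 (0.66), FLNC (0.66), ACTG1 (0.58) and B2M (0.53). Smaller still were MT-RNR2 (0.52), MT-ND1 (0.46), CGN (0.46), LY6E (0.41), ICAM1 (0.41), PAXIP1 (0.39), LGALS1 (0.36), PPL (0.36), DSP (0.35), CDC45 (0.32), DSG2 (0.32) and NRG1 (0.29). The difference was smaller for MCM5 (0.26). Lower in KO2 than in KO1 were LONRF3 (-5.75), PTGER4 (-2.43), MAL2 (-2.43), MMP3 (-2.40), CSF3 (-2.36), NRP1 (-2.28), FOXF2 (-2.25), AKR1C1 (-1.92), HLA-DQB1 (-1.75), PTGS2 (-1.67), WNT7A (-1.60) and NDRG1 (-1.33). Next in size came VIM (-1.32), CDKN1A (-1.29), LCP1 (-1.26), DUSP5 (-1.15), TNIK (-1.07), ITGA2 (-1.04), AKR1C2 (-1.02), NTN1 (-1.01), CELSR2 (-0.87), DOCK4 (-0.81), IL1A (-0.78) and GRHL1 (-0.69). The smallest of these were EGR1 (-0.52), CDKN2C (-0.47), MT2A (-0.46), EGFR (-0.42), COL12A1 (-0.42), RAC2 (-0.39) and COL17A1 (-0.35).

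The effect of the knockout differed between glucose conditions (same test in 1 fit of all 14 libraries) in 30 of these 165 genes, against 11.3% of all genes in that fit. The difference of log2 fold changes, with minus without glucose, is in brackets. The knockout effect was more positive with glucose for LOX (1.95), FOXE1 (1.56), HOXD13 (1.20), BTG2 (1.20), CELSR2 (1.16), SPRY2 (0.97), TLR2 (0.89) and MKI67 (0.51). It was more negative with glucose for CCN2 (-2.67), KRT17 (-2.60), NGFR (-2.39), DUSP1 (-2.34), PPP1R15A (-2.19), JAG1 (-2.01), KLF4 (-1.85), KRT14 (-1.59), CCBE1 (-1.53), MT-RNR2 (-1.46), XBP1 (-1.18) and ITGB4 (-0.84). A smaller difference of this sign was seen for NRG1 (-0.76), FN1 (-0.74), RAC2 (-0.74), FGFR4 (-0.73), LGALS1 (-0.71), RPL8 (-0.51), EPAS1 (-0.50), HLA-B (-0.49), RACK1 (-0.45) and MCM5 (-0.42).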

How the results depend on the processing

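Against 2384 lower and 2658 higher genes, DESeq2 without experiment called 1024 and 1204, experiment 1 alone 167 and 137, experiment 2 alone 1125 and 1211, and the limit of at least 1.5-fold left 1474 and 1613. Without the replicate block, that is with experiment left out of the model, 476 and 495 genes were called, all of them also called with it, and 97 of the 153 named called genes kept their call. With each library left out in turn, lower genes ranged from 1008 to 2435 and higher genes from 1134 to 2613. The lowest counts came without the WT library of experiment 1, which leaves experiment 1 without a WT library, so that the genotypes are compared within experiment 2 alone. DESeq2 with experiment (2552 and 2996), RLE scaling (2330 and 2717), library size scaling (2794 and 2323), halved counts (2369 and 2713), no filter (3009 and 3113), the stricter filter (2325 and 2545), KO1 alone (3209 and 3201), KO2 alone (3534 and 3739), 1 fit of all 14 libraries (2475 and 2760) and, added after the data had been seen, genes of windows near 0 alone (1804 and 1838) stayed within 1.5 times. None of the 153 named called genes changed direction under these settings. Of the genes without a call, KMT2D was higher in KO2 alone (0.37), KRT5 lower in KO1 alone (-2.65) and B2M higher in KO2 alone (0.25). Shallow libraries of experiment 1 limit what can be seen of genes near 0.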

Other observations

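Other marker lists were at low levels in all 7 libraries. Melanocyte markers summed to 13.1 to 18.4 CPM in WT and 6.59 to 11.2 CPM in KMT2D-KO libraries, with TYR at 0 and 1 of 6 lower. Endothelial markers summed to 3.55 to 4.93 and 4.32 to 9.44 CPM (1 of 8 higher), neuronal and glial markers to 9.82 to 12.9 and 6.83 to 14.1 CPM (1 of 8 higher), and muscle markers to 7.48 to 18.9 and 7.55 to 29.9 CPM (1 of 6 higher), with MYOD1 and MYH2 at 0.

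Outside protein-coding genes, 87 of 1304 long noncoding RNAs tested were lower and 131 higher, and of 1414 processed pseudogenes 10 were lower and 62 higher (median log2 fold changes 0.07 and 0.18). Reads of processed pseudogenes can come from their parent genes, so these counts are uncertain. By chromosome, the largest shares of higher genes were on chromosomes 8 (26.6% of 688), 20 (24.2% of 513) and X (23.8% of 688), and the largest share of lower genes on chromosome 22 (41.3% of 487).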
